A study of Mus musculus with 24 samples.

Results

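The Wnt ligands, their Frizzled receptors and their secreted antagonists of the Sfrp and Dkk families were read from bead arrays of mouse bone, white fat and heart. Membership was set by gene symbol alone: every probe annotated as a numbered Wnt, Fzd, Sfrp or Dkk gene was taken, whatever its signal. This gave 49 of 25697 probes and 35 of 16593 named genes, with 28 probes for 19 Wnt genes, 11 probes for 8 Fzd genes, 4 probes for 4 Sfrp genes and 6 probes for 4 Dkk genes. Fzd5 and Fzd9 were not analysed here.

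Wnt proteins are lipid-modified secreted ligands that bind Frizzled receptors. With the co-receptors Lrp5 and Lrp6 they stabilise beta-catenin, while other ligands, Wnt5a the best known, act mainly through beta-catenin-independent routes such as planar polarity and Ror receptors. Sfrp proteins bind Wnts through a Frizzled-like domain, and Dkk1 blocks Lrp5 and Lrp6. The pathway is known for promoting bone formation, for restraining adipocyte differentiation and for its part in heart development.

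The animals were male C3HeB/FeJ mice of 117 days, either heterozygous for the chemically induced (ENU) Y129F allele of the endothelin A receptor gene Ednra or wild-type. The series presents homozygotes as a mouse model for the human VCFS/DGS malformation syndrome. The mutation was not restricted to any tissue, and homozygous samples were not analysed here. Each of 6 groups had 4 arrays: heterozygous and wild-type bone, white fat and heart. Hearts came from 8 animals of their own, while bone and white fat came from shared animals. The labels do not say which bone or fat depot was taken.

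Levels are log2 intensities after background correction and normalization, and a probe counted as detected on an array when its deposited detection p was under 0.05. Arrays detected 13353 to 13919 probes in bone, 12956 to 13710 in white fat and 9931 to 12143 in heart. The osteocalcin gene Bglap2 was detected on 8 bone arrays, the adipokine gene Adipoq on 8 white fat arrays and the myosin gene Myh6 on 8 heart arrays, with medians of 14.0, 14.1 and 14.5. Bone also carried the skeletal muscle actin gene Acta1 at a median of 14.5 and Adipoq at 10.8. Wild-type heart array 4 stood apart, with a mean correlation of 0.832 with the other hearts, against 0.961 to 0.969 for each of the other 7, and with the lowest probe count. The arrays of heterozygous white fat had a mean raw intensity of 553 to 666, against 702 to 820 for wild-type white fat, without overlap between the genotypes. For bone and white fat the labels give 7 mouse numbers, because 1 number stands under both genotypes.

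By brightest probe, detection on all 8 arrays of 1 tissue and on at most 1 of 8 arrays of either other tissue was seen for 3 members: Dkk1 in bone, Sfrp5 in white fat and Fzd10 in heart. Their promoter windows are shown because these members carry the clearest tissue pattern. Each window runs from 250 bases before to 50 bases after the RefSeq start in build GRCm38.p6, 5′ to 3′ on the gene's strand, and capitals mark the RUNX hexamer TGTGGT or its reverse complement ACCACA.
Dkk1, chr19:30549447-30549746, minus strand: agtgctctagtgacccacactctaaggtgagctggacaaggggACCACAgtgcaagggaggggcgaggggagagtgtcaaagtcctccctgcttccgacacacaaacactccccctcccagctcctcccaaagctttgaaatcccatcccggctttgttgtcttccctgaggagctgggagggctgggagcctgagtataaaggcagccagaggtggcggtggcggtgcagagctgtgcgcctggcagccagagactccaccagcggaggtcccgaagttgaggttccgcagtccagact
Sfrp5, chr19:42202203-42202502, minus strand: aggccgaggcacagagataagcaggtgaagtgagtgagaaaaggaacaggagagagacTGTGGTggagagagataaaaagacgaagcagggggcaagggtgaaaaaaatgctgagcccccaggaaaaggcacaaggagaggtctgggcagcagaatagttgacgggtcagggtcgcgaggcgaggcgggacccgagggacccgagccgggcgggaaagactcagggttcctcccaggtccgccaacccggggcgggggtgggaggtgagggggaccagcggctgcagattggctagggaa
Fzd10, chr5:128600856-128601155, plus strand: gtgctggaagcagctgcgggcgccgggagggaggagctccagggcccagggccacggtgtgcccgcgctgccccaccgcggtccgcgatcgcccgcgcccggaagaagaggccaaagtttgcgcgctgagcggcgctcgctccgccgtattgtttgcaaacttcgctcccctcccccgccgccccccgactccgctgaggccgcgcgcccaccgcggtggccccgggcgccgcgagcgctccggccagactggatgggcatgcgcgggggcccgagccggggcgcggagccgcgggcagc
The GC content was 60.7% for Dkk1, 61.3% for Sfrp5 and 77.7% for Fzd10, against a median of 52.7% over 32851 promoter windows of the same length.

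All promoter windows were searched for 3 motifs on both strands: the TCF/LEF core ATCAAAG, the RUNX hexamer TGTGGT and the palindromic C/EBP site TTGCGCAA. RUNX and C/EBP factors are textbook regulators of bone and fat cells, and TCF/LEF factors carry the beta-catenin signal. The hexamer was in 2 of 26 member windows, those of Dkk1 and Sfrp5, and in 16.8% of all windows. The TCF/LEF core was in 2 member windows, those of Wnt5b and Wnt11, and in 3.73% of all windows. The C/EBP site was in 0 member windows and in 0.183% of all. Windows were found for 23 of the 35 genes.

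Detection was the first measure. Members counted as detected in a tissue on at least 4 of its 8 arrays numbered 13 genes in bone, 12 in white fat and 11 in heart. As probes these were 30.6%, 30.6% and 28.6% of the 49, against 53.3%, 52.2% and 45.4% of every probe on the array. Receptors were detected more broadly than ligands, as 5 of 8 Fzd genes were detected in each tissue against 4, 3 and 4 of 19 Wnt genes in bone, white fat and heart; this contrast was not tested. The map of detection by gene shows these counts.

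**Figure D1:**
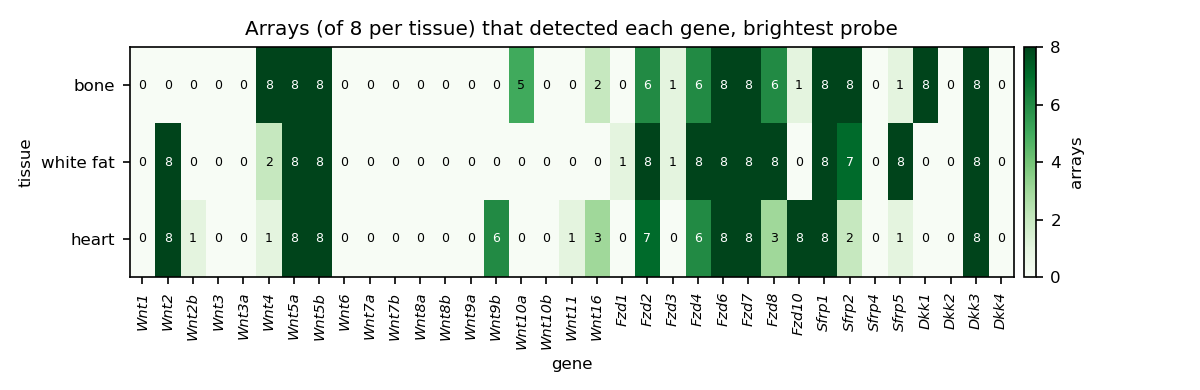
Number of arrays, of 8 per tissue, on which the brightest probe of each of the 35 genes was detected (detection p under 0.05). Wnt5a, Wnt5b, Fzd6, Fzd7, Sfrp1 and Dkk3 show 8 in every tissue, Dkk1 shows 8 in bone and 0 elsewhere, and most Wnt genes show 0 throughout.

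Of the 35 genes, 17 were detected in at least 1 tissue and 8 in all of them: the ligands Wnt5a and Wnt5b, the receptors Fzd2, Fzd4, Fzd6 and Fzd7, and the antagonists Sfrp1 and Dkk3. The 18 others were Wnt1, Wnt2b, Wnt3, Wnt3a, Wnt6, Wnt7a, Wnt7b, Wnt8a, Wnt8b, Wnt9a, Wnt10b, Wnt11, Wnt16, Fzd1, Fzd3, Sfrp4, Dkk2 and Dkk4. For 13 of these, no probe was detected on any of the 24 arrays. They include Wnt10b, known as a brake on adipocyte formation, and Wnt3a, a classical activator of beta-catenin. Signal at background on these arrays does not show that a transcript is absent.

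Tissue differences among members were wide, as were those of the array as a whole. With the 24 arrays normalized together and tested in limma, 18 of 20 member probes differed between bone and heart, against 83.4% of all probes tested; 5 were higher in bone and 13 lower, against 39.5% and 44% of all probes. Between bone and white fat 18 of 19 differed, against 76.2%, with 8 higher in bone (35.6% of all) and 10 lower (40.6% of all). Between white fat and heart 17 of 18 differed, against 79.7%, with 6 higher in white fat (39.5% of all) and 11 lower (40.2% of all). The differences between these shares and those of all probes were not tested, and nothing particular to the family is read from them. Here and in the interactions, the fit took bone and white fat arrays as independent, although they came from shared animals. With animal as a block, the estimated consensus correlation between arrays of the same animal was 0.0039. The median size of the member differences was 0.83, 1.12 and 0.93 on the log2 scale, against 0.84, 0.66 and 0.71 over all probes. In whole tissue, fewer cells of a type and less RNA per cell cannot be told apart.

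Tissue scaling moved the median of all probes. It lay at -0.08 for bone minus heart, -0.06 for bone minus white fat and -0.01 for white fat minus heart after quantile normalization, at 0.10, -0.12 and 0.23 after median scaling and at 0.64, -0.52 and 1.20 in the authors' own normalized values. Relative to that median, the sign held under quantile normalization, median scaling and the authors' values for 19 of 19 probes between bone and white fat and 18 of 18 between white fat and heart. Between bone and heart it held for 16 of 20, and the exceptions were Fzd7, Wnt10a, Wnt5b and the dimmer Wnt4 probe. Taken as they stand, calls were lost after median scaling by Fzd4, Wnt10a, Wnt5b and the dimmer Wnt4 probe between bone and heart, and by Wnt2, the main Wnt5a probe, Wnt5b, Sfrp1 and Fzd7 between white fat and heart. In the authors' values the white fat minus heart difference turned above 0 for Wnt2, the main Wnt5a probe, Wnt5b, Sfrp1, Fzd6 and Fzd7.

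Among the ligands, Wnt5a was bright in white fat and heart and dim in bone. Its main probe had a lowest, median and highest level of 5.35, 5.76 and 6.28 in bone, 7.84, 8.28 and 8.41 in white fat and 8.19, 8.58 and 8.89 in heart. Bone lay wholly below the other tissues, with a difference of -2.42 from white fat (SE 0.101, adjusted p = 6.74e-16) and of -2.79 from heart (SE 0.101, adjusted p = 4.25e-17). Between white fat and heart the probes disagreed, with a difference of -0.37 on the main probe (SE 0.101) and 0.92 on the other (SE 0.144), and the correlation of the pair over 24 arrays was 0.673. The ordering of those tissues for Wnt5a is therefore unsettled in these data.

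Wnt2, a ligand known from early heart and lung development, was detected on 0 bone, 8 white fat and 8 heart arrays. Its lowest, median and highest levels were 4.41, 4.50 and 4.69 in bone, 5.19, 5.46 and 5.94 in white fat and 5.75, 5.98 and 6.87 in heart. Bone was at background, so heart was at least 2.20-fold higher than bone and white fat at least 1.41-fold higher. Such bounds set the brighter tissue against the faintest signal well detected on the dim tissue's arrays. White fat minus heart was -0.63 (SE 0.109, adjusted p = 1.54e-05), with ranges that overlapped, but it was -0.13 after median scaling (adjusted p = 0.209) and 1.04 in the authors' values (adjusted p = 1.52e-06), so the order of those tissues is unsettled.

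Wnt4 and Wnt10a were detected mainly in bone. The main Wnt4 probe was detected on 8 bone, 2 white fat and 1 heart arrays, with median levels of 5.93, 4.94 and 4.91. Against these levels, mostly at background outside bone, bone was higher by 0.94 than white fat (SE 0.135) and by 1.00 than heart (SE 0.135), with no overlap between arrays. Wnt10a was detected on 5 bone arrays and on 0 others, and bone was at least 1.05-fold above white fat. Against heart the bound was below 0 on the log2 scale for Wnt10a (-0.38) and the dimmer Wnt4 probe (-0.45). No fold over heart is therefore given for them, although both are counted above among the probes higher in bone than in heart. Wnt9b was detected on 6 heart arrays and on 0 others, and heart was at least 1.45-fold above bone and 1.40-fold above white fat. The second Wnt9b probe gave bounds of 1.31-fold and 1.26-fold. In the authors' normalized values the Wnt9b difference was -0.12 in both contrasts (adjusted p = 0.230 against bone and 0.217 against white fat) and did not pass the threshold. Those values were used here with intensities under 16 raised to 16, which can shrink differences of probes near background. Wild-type heart array 4 was one of the 2 hearts in which Wnt9b was not detected.

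Wnt5b, a close relative of Wnt5a, was detected on all 24 arrays. Its medians were 5.94 in bone, 5.65 in white fat and 6.40 in heart. White fat minus heart was -0.78 (SE 0.103, adjusted p = 4.16e-07) with no overlap. After median scaling it was -0.27 (adjusted p = 0.0568), and in the authors' values it turned to 0.80 (adjusted p = 5.40e-05).

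Among the receptors, Fzd10 set heart apart. It had a lowest, median and highest level of 4.62, 4.72 and 5.18 in bone, 4.52, 4.66 and 4.74 in white fat and 7.18, 8.21 and 8.74 in heart. The lowest heart, wild-type array 4, was still above each of the 16 other arrays. It was detected on 1 bone and 0 white fat arrays. Bone minus heart was -3.40 (SE 0.162, adjusted p = 6.38e-15), taken against a bone level that was above background on that 1 array only, and heart was at least 8.81-fold above white fat. The other Fzd10 probes were detected on 0 heart arrays, and 1 of them was detected on 1 bone and 2 white fat arrays. The heart pattern therefore rests on 1 probe.

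Fzd4, which also serves as the receptor for norrin, and Fzd2, a receptor for Wnt5a, were brightest in white fat. Fzd4 had medians of 5.25 in bone, 7.71 in white fat and 5.60 in heart, and its white fat range of 6.77 to 8.11 lay above both others. White fat exceeded heart by 2.01 (SE 0.149, adjusted p = 2.66e-11), and bone minus white fat was -2.46 (SE 0.149, adjusted p = 6.52e-13). The second Fzd4 probe moved with the first over 24 arrays (r = 0.929) and put white fat at least 4.11-fold above bone. Fzd2 had medians of 5.16, 7.41 and 5.99 in bone, white fat and heart, with differences of -2.22 for bone minus white fat (SE 0.184) and 1.58 for white fat minus heart (SE 0.184).

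Fzd6 is a planar polarity receptor. Its medians were 5.52 in bone, 6.72 in white fat and 7.76 in heart, and white fat minus heart was -1.14 (SE 0.155, adjusted p = 6.26e-07). That difference was -0.64 after median scaling (adjusted p = 0.000563) and 0.26 in the authors' values (adjusted p = 0.206), while Fzd6 was lower in bone than in both other tissues under each of these scalings. Fzd7 had medians of 8.01, 7.79 and 8.04 in bone, white fat and heart. Bone minus heart was -0.08 for Fzd7 (SE 0.0929, adjusted p = 0.400), and bone minus white fat was 0.15 (SE 0.0929, adjusted p = 0.142). White fat minus heart was -0.24 (SE 0.0929, adjusted p = 0.0240). In the authors' values Fzd7 differed by 0.86 for bone minus heart (adjusted p = 5.07e-08) and by 1.15 for white fat minus heart (adjusted p = 3.58e-10). Fzd8 was detected on 6 bone, 8 white fat and 3 heart arrays, and the difference between bone and heart did not pass (-0.14, SE 0.115, adjusted p = 0.260). Bone minus white fat was -0.34 for Fzd8 (SE 0.115, adjusted p = 0.0114).

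**Figure D2:**
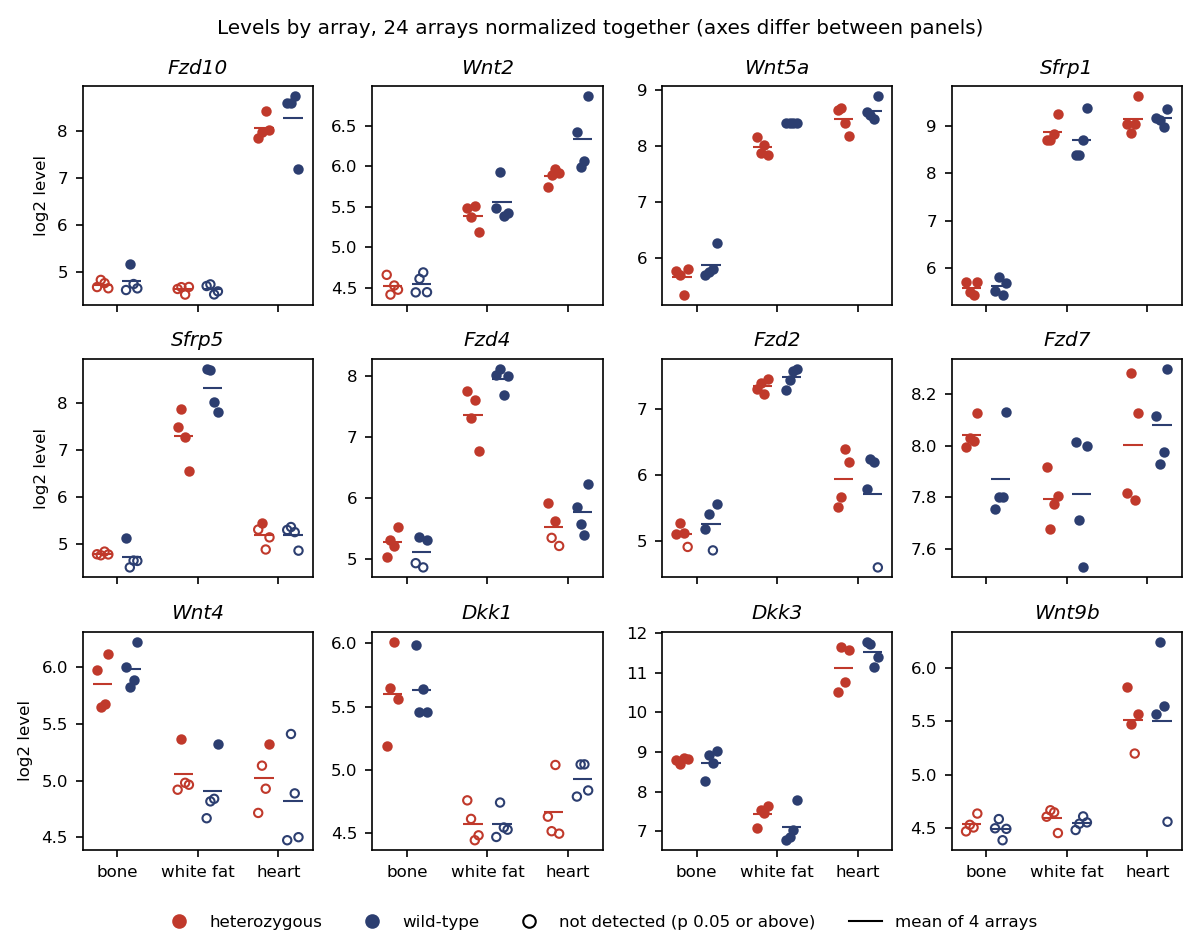
Log2 level of 12 members on each of 24 arrays normalized together, by tissue, with heterozygous arrays left of wild-type ones. Open points were not detected and lines are means of 4 arrays; Fzd10 lies above 7 in heart alone, Sfrp5 above 6.5 in white fat alone, and Fzd7 has medians of 7.79 to 8.04 in the 3 tissues.

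Among the antagonists, Sfrp5, described in mice as an adipokine that binds Wnt5a, was high in white fat alone. Its lowest, median and highest levels were 4.50, 4.77 and 5.13 in bone, 6.55, 7.83 and 8.72 in white fat and 4.86, 5.28 and 5.44 in heart. It was detected on 1 bone, 8 white fat and 1 heart arrays, so both differences are taken against levels mostly at background. Bone minus white fat was -3.04 (SE 0.165, adjusted p = 8.81e-14), and white fat minus heart was 2.61 (SE 0.165, adjusted p = 1.61e-12). It also had the widest spread within a tissue of the members detected there, with an SD of 0.72 over the 8 white fat arrays of both genotypes. With white fat normalized alone, its SD was 0.524 in heterozygous and 0.427 in wild-type arrays, against 0.574 for Fzd6 in wild-type arrays.

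Sfrp1 was bright in white fat and heart, with medians of 5.59, 8.70 and 9.10 in bone, white fat and heart. Bone minus white fat was -3.21 (SE 0.138) and bone minus heart -3.58 (SE 0.138), so heart was 11.9-fold higher than bone. Sfrp2 was brightest in bone, with a median of 6.00 against 5.54 in white fat and 5.18 in heart, and it was detected on 8, 7 and 2 arrays of these tissues. Bone exceeded heart, mostly at background, by 0.82 (SE 0.135, adjusted p = 8.26e-06). Bone minus white fat was 0.43 (adjusted p = 0.00613), and 0.13 in the authors' values (adjusted p = 0.438).

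Dkk3, a divergent Dkk family member, was detected with its main probe on all 24 arrays and differed between every pair of tissues. Its lowest, median and highest levels were 8.26, 8.81 and 9.02 in bone, 6.77, 7.26 and 7.78 in white fat and 10.53, 11.49 and 11.79 in heart, and no ranges overlapped. White fat minus heart was -4.06 (SE 0.171, adjusted p = 9.03e-16), a fold of 16.7, and bone was 1.50 above white fat (SE 0.171, adjusted p = 4.65e-08). A second Dkk3 probe followed the first with r = 0.997 over 24 arrays. The third Dkk3 probe was detected on 0 arrays of every tissue and did not show these differences. Dkk1, the inhibitor of Lrp5 and Lrp6, was detected on 8 bone arrays at 5.19 to 6.01 and on 0 others, which put bone at least 1.50-fold above white fat and 1.10-fold above heart.

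Markers of other cell types also differed between the tissues, in both directions. The summed level of 6 mesothelial genes ran from 7.07 to 7.22 in bone, where at most 1 of the 6 was detected, from 11.5 to 12.5 in white fat and from 10.1 to 11.1 in heart. Wnt2, Sfrp1 and Wnt5a likewise had their lowest median in bone, as did other members such as Fzd2, Fzd4 and Fzd6. Dkk1, Wnt4 and Sfrp2 had their highest median there. Unlike the mesothelial sums, the medians of Wnt2, Sfrp1 and the main Wnt5a probe were higher in heart than in white fat after quantile normalization. Endothelial genes were also lower in bone than in heart for 6 of 7 (median -1.66), and mural genes for 4 of 5 (median -1.24). Other lists were higher in bone than in heart, among them 9 of 9 neutrophil genes (median 8.44) and 6 of 7 skeletal muscle genes (median 7.22). Fibroblast and stroma genes were split, with 3 higher and 5 lower in bone. The part of these cell types in the member levels was not tested.

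Leaving out wild-type heart array 4 gave 18 member probes past the threshold between bone and heart and 17 between white fat and heart, against 87.7% and 84.4% of all probes. Fzd10 then differed by -3.62 between bone and heart (SE 0.0936) and Fzd2 by -0.85 (SE 0.130). The Fzd2 difference was -0.64 with all arrays and 0.08 in the authors' values (adjusted p = 0.683).

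The pathway outside the family was read from 65 genes in 7 lists. Of 39 measured between bone and heart, 12 passed as higher and 20 as lower in bone, where 39.5% and 44% of all probes did. Of 39 measured between bone and white fat, 13 passed as higher and 20 as lower in bone, where 35.6% and 40.6% of all probes did. Of 37 measured between white fat and heart, 17 passed as higher and 12 as lower in white fat, where 39.5% and 40.2% of all probes did. Both secretion genes, the Wnt acyltransferase Porcn and the Wnt carrier Wls, were highest in white fat: Wls averaged 8.55 ± 0.206 in bone, 9.70 ± 0.172 in white fat and 9.23 ± 0.179 in heart (SD, n = 8 each).

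Of 6 other antagonist genes measured between bone and heart, 2 passed as higher and 2 as lower in bone and 2 did not pass. Of 5 measured between white fat and heart, 2 passed as higher and 3 as lower in white fat, against the same shares of all probes. Wif1, which binds Wnts directly, averaged 9.06 ± 0.204 in bone, 5.38 ± 0.261 in white fat and 6.79 ± 0.601 in heart (SD, n = 8 each). Apcdd1, a membrane inhibitor, averaged 5.68 ± 0.197 in bone, 10.5 ± 0.179 in white fat and 5.87 ± 0.644 in heart, with bone minus white fat at -4.77 (SE 0.193, adjusted p = 3.85e-16). The feedback gene Axin2, a common readout of beta-catenin activity, averaged 5.78 ± 0.150 in bone, 8.49 ± 0.395 in white fat and 7.10 ± 0.253 in heart. The Wnt5a co-receptor Ror2 was lower in bone, at 4.95 ± 0.231, than in heart, at 6.47 ± 0.299 (bone minus heart -1.52, SE 0.113, adjusted p = 2.21e-11). The Ror2 level in bone lay near background. For comparison, the main Wnt4 probe averaged 4.98 in white fat, where it was detected on 2 of 8 arrays.

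The genotype comparison asked whether the same genes differ in heterozygous animals. None of the member probes passed the adjusted threshold in any tissue: 0 of 15 in bone, where 0.0146% of all probes passed, 0 of 15 in white fat, where 0.00746% passed, and 0 of 14 in heart, where 0% passed (limma, Benjamini-Hochberg). At an unadjusted p under 0.05 the member counts were 0, 4 and 0, against 19%, 29.4% and 5.66% of all probes. P-values here measure the spread between mice of a group. The plot of genotype differences shows the intervals.

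**Figure D3:**
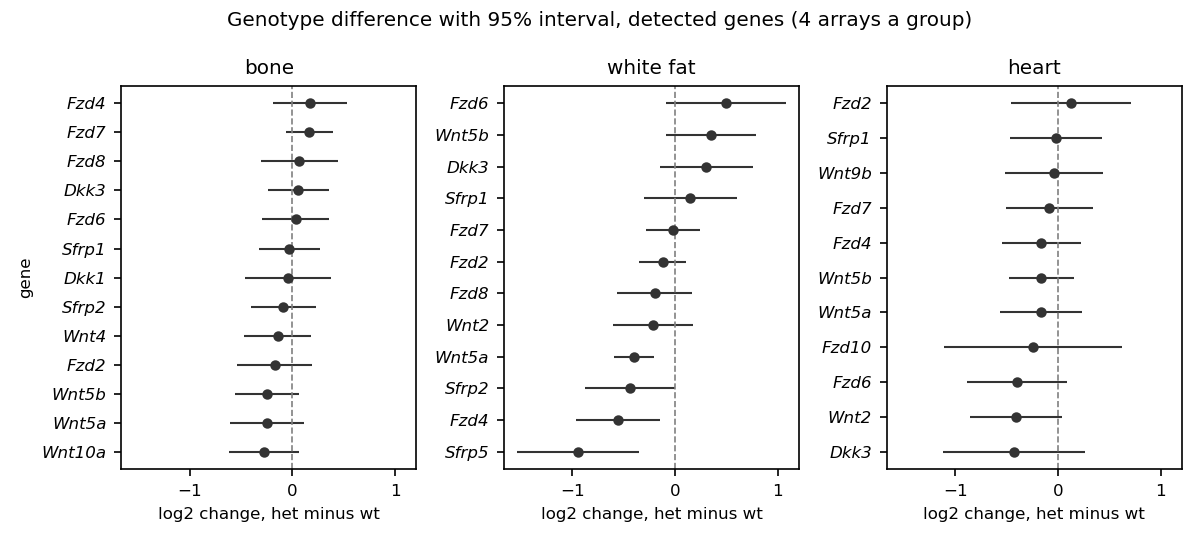
Log2 change, heterozygous minus wild-type, with 95% intervals for the brightest probe of each detected member in bone, white fat and heart (4 arrays a group). Only Sfrp5, Fzd4 and Wnt5a in white fat have intervals wholly below 0, and none passed the adjusted threshold.

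White fat held the member changes of largest size, from -0.94 to 0.49. Of its 15 member probes 5 were higher, against 52.7% of all probes, and the 4 with an unadjusted p under 0.05, Wnt5a, Sfrp5 and both Fzd4 probes, were all lower. Sfrp5 had levels of 8.11, 8.45, 7.89 and 7.21 in heterozygous arrays 1 to 4, against 9.23, 9.20, 8.60 and 8.39 in wild-type arrays 1 to 4. Heterozygous array 2 overlapped the lowest wild-type array. The change was -0.94 (SE 0.268, 95% interval -1.54 to -0.35, adjusted p = 0.0727).

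Wnt5a had levels of 8.73, 8.46, 8.59 and 8.42 in heterozygous white fat, against 8.95 in each of the 4 wild-type arrays. The groups did not overlap, as was so for 16.5% of all probes in white fat. The change was -0.40 (SE 0.0875, 95% interval -0.59 to -0.20, adjusted p = 0.0632), and the wild-type SD was 0.00185. The other Wnt5a probe had 6.74, 6.74, 7.32 and 6.77 in heterozygous and 6.93, 7.16, 7.32 and 6.90 in wild-type arrays, with a change of -0.18 (SE 0.163, adjusted p = 0.461).

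Fzd4 had 8.34, 7.93, 8.20 and 7.42 in heterozygous white fat, against 8.58, 8.68, 8.29 and 8.57 in wild-type. Heterozygous array 4 was the lowest and array 1 overlapped the wild-type group. The change was -0.55 (SE 0.184, adjusted p = 0.0924), and the second probe gave -0.51 (SE 0.189, adjusted p = 0.115).

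Sfrp2 had 5.96, 5.87, 6.21 and 5.36 in heterozygous white fat, against 6.17, 6.50, 5.98 and 6.51 in wild-type, a change of -0.44 (SE 0.199, adjusted p = 0.172). Fzd6 had 7.42, 7.64, 7.14 and 7.84 in heterozygous and 6.37, 6.73, 7.64 and 7.32 in wild-type white fat, a change of 0.49 (SE 0.263, adjusted p = 0.233) that was 0.28 without wild-type array 1, 0.25 without background correction and 0.20 with array brightness as a covariate. The groups overlapped for both genes. Wnt5b had 6.38, 6.36, 6.22 and 6.22 in heterozygous and 5.49, 5.86, 5.92 and 6.52 in wild-type white fat, and wild-type array 4 was the highest of the 8 (change 0.35, SE 0.197, adjusted p = 0.262). Without wild-type array 1 the Wnt5b change was 0.19, with array brightness as a covariate it was 0.01 (SE 0.323), and without heterozygous array 4 the Sfrp2 change was -0.28.

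These white fat values moved with the arrays chosen. Without wild-type array 4, 5 of 15 member probes passed, against 11.5% of all probes: both Dkk3 probes (0.52 and 0.50, adjusted p = 0.0471 and 0.0394) and Wnt5b (0.54, adjusted p = 0.0491) were higher, while Sfrp5 (-1.10, adjusted p = 0.0381) and Wnt5a (-0.40, adjusted p = 0.0400) were lower. Without wild-type array 3 only Wnt5a passed (adjusted p = 0.0398), against 10.3% of all probes. Leaving out both white fat arrays of the shared mouse number gave 0 of 15, against 0% of all probes. The change was then -0.79 for Sfrp5 (adjusted p = 0.108) and -0.35 for the main Wnt5a probe (adjusted p = 0.0940). Detection p under 0.01 on all 8 arrays left 11 member probes, of which Wnt5a passed, against 3.8% of all probes, and a replicate block gave 2, Wnt5a and Sfrp5, against 13.7%. With array brightness as a covariate 0 members passed. The change was then -0.34 for Sfrp5 (SE 0.406), -0.41 and -0.55 for the main and other Wnt5a probes (SE 0.154 and 0.250), -0.57 and -0.26 for the main and second Fzd4 probes (SE 0.323 and 0.317) and -0.69 for Sfrp2 (SE 0.338).

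Marker lists also differed in mean level between the white fat groups, with 0 genes of the lists named here past the threshold. All 6 measured macrophage genes had a lower mean in heterozygous fat, with summed levels of 12.5 to 12.8 in heterozygous and 12.9 to 13.5 in wild-type arrays. All 6 mesothelial genes had a higher mean there, with sums of 12.1, 12.0, 12.3 and 12.0 in heterozygous arrays 1 to 4 and 11.5, 11.7, 11.8 and 12.5 in wild-type arrays 1 to 4. The mean was higher in heterozygous fat for 7 of 8 adipocyte genes (median 0.20), with a sum of 16.3 to 16.4 in each group. It was also higher for 5 of 5 erythroid genes (median 0.24), 3 of 3 neutrophil genes (median 1.14) and 3 of 3 skeletal muscle genes (median 1.02). Those 3 were the measured ones of 9 neutrophil and 8 skeletal muscle genes listed, and the sums overlapped. Neutrophil sums ran from 9.16 to 13.9 in heterozygous and 9.12 to 10.5 in wild-type arrays. Skeletal muscle sums ran from 10.4 to 12.2 in heterozygous and 10.5 to 11.1 in wild-type arrays. For T cell genes 3 of 4 had a lower mean (median -0.20), and their sums did not overlap, at 9.84 to 10.1 in heterozygous and 10.2 to 10.6 in wild-type arrays. Wild-type array 4 was highest in mesothelial sum and in Dkk3, Sfrp1 and Wnt5b; the part of these cell types in the member changes was not tested.

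**Figure D4:**
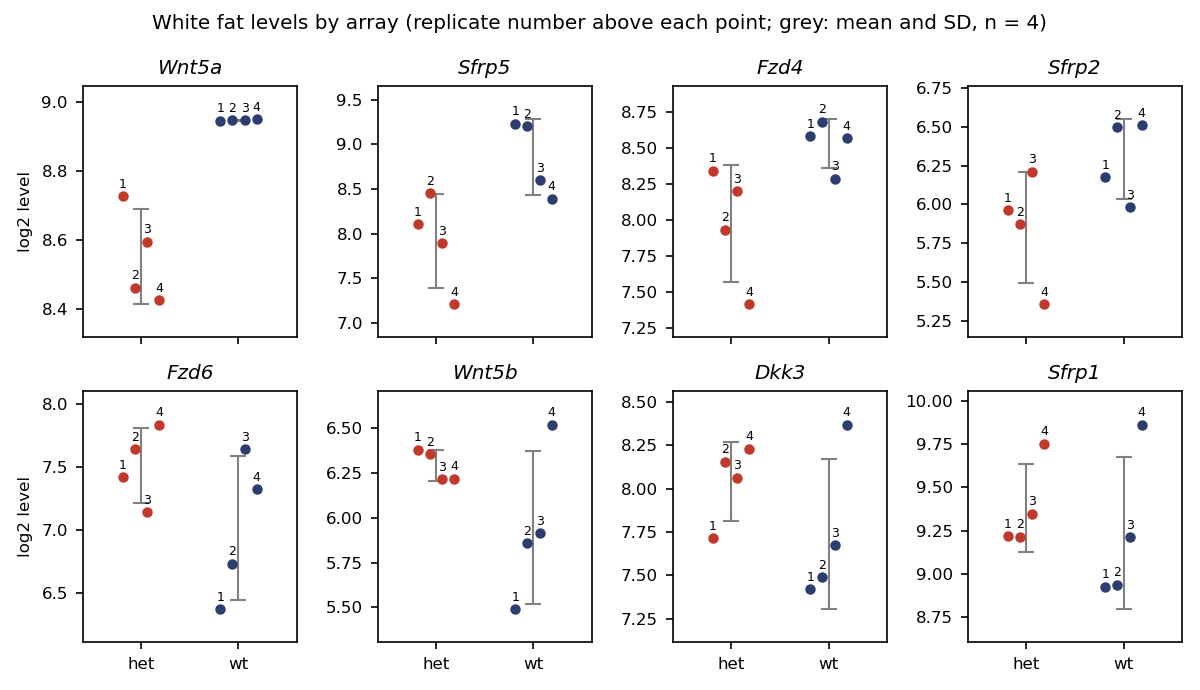
White fat log2 levels of 8 members on each array, heterozygous left of wild-type, with replicate numbers above the points and grey bars spanning the mean ± 1 SD (n = 4). Wnt5a does not overlap between groups, and wild-type array 4 tops its group for Wnt5b, Dkk3 and Sfrp1.

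In bone, 6 of 15 member probes were higher in heterozygous arrays, as were 46.9% of all probes, and 0 had groups that did not overlap, against 9.57% of all probes. The members with the smallest p were Wnt10a, Wnt5b, Fzd7, Wnt5a, Fzd4 and Fzd2, and each overlapped between genotypes. Wnt10a had 5.24, 4.94, 4.86 and 5.16 in heterozygous and 5.69, 5.36, 5.30 and 4.96 in wild-type bone (change -0.28, SE 0.159, adjusted p = 0.369). Fzd7 had 8.18, 8.21, 8.20 and 8.30 in heterozygous bone, against 7.94, 7.99, 7.99 and 8.31 in wild-type, where array 4 was the only one above 8 (change 0.16, SE 0.105, adjusted p = 0.416).

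Wnt5b had 5.69, 5.94, 6.11 and 6.16 in heterozygous and 5.96, 6.41, 6.22 and 6.28 in wild-type bone (change -0.24, SE 0.145, adjusted p = 0.383). Wnt5a had 5.95, 5.87, 5.47 and 6.00 in heterozygous and 5.87, 5.93, 5.98 and 6.49 in wild-type bone (change -0.25, SE 0.166, adjusted p = 0.444). For Wnt5a, heterozygous array 3 was the lowest of the 8 and wild-type array 4 the highest, and without the wild-type one the change was -0.11. Fzd4 had 5.10, 5.41, 5.31 and 5.67 in heterozygous and 4.99, 5.48, 4.92 and 5.42 in wild-type bone, and Fzd2 had 5.21, 5.39, 5.22 and 4.99 in heterozygous and 5.27, 5.55, 4.93 and 5.73 in wild-type bone. The bone-restricted Dkk1 had 5.28, 5.81, 6.22 and 5.72 in heterozygous and 6.18, 5.60, 5.80 and 5.60 in wild-type bone, a change of -0.04 with a 95% interval of -0.46 to 0.38. Single arrays also moved other bone changes: Wnt10a was -0.16 without wild-type array 1, Wnt5b -0.15 without heterozygous array 1 and Fzd7 0.25 without wild-type array 4.

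Leaving out wild-type bone array 3 gave 0 of 14 member probes past the threshold, against 10.3% of all probes, and leaving out both bone arrays of the shared mouse number gave 0 of 13, against 10%. Marker gene means also differed in bone, higher in heterozygous arrays for 5 of 6 macrophage and 8 of 9 neutrophil genes. They were lower for 5 of 6 erythroid and 3 of 4 B cell genes, and T cell genes were split. Sums of neutrophil, erythroid, B cell and T cell genes did not overlap between genotypes. T cell sums were 10.26 to 10.58 in heterozygous and 9.93 to 10.22 in wild-type arrays. None of these genes passed the threshold, and their part in the member changes was not tested.

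In heart, 2 of 14 member probes were higher and 12 lower in heterozygous arrays, where 39.3% of all probes were higher, and the median member change was -0.16, against -0.08 over all probes. That tally depended on the scaling: after median scaling 7 were higher and 7 lower, with 63.6% of all probes higher, and after cyclic loess 5 were higher and 9 lower, with 54.1% higher. Marker gene means also differed, with lower means in heterozygous hearts for 3 of 4 mesothelial genes (median -0.63) and 4 of 5 adipocyte genes (median -0.37) and higher means for 3 of 3 neutrophil genes (median 1.27). Neutrophil sums were 8.78 to 11.1 in heterozygous and 8.34 to 9.52 in wild-type hearts. None of these marker genes passed the threshold, and their part in the member changes was not tested. Wnt2 had 4.98, 5.09, 5.15 and 5.11 in heterozygous and 5.56, 5.17, 5.23 and 6.00 in wild-type hearts, and the groups did not overlap, as was so for 7.98% of all probes (change -0.41, SE 0.195, adjusted p = 0.600). Fzd6 had 7.03, 6.76, 6.76 and 6.58 in heterozygous and 7.06, 6.97, 6.98 and 7.72 in wild-type hearts (change -0.40, SE 0.214, adjusted p = 0.600). Wild-type array 4 was the highest for both genes, and without it the changes were -0.26 for Wnt2 (SE 0.140) and -0.21 for Fzd6 (SE 0.120).

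Dkk3 had 9.97, 11.20, 10.21 and 11.13 in heterozygous and 11.36, 11.29, 10.65 and 10.92 in wild-type hearts. Its change was -0.43 (SE 0.303, adjusted p = 0.600), with heterozygous arrays 1 and 3 the lowest, and it was -0.21 without heterozygous array 1. Wnt5b had 5.46, 5.51, 5.53 and 5.15 in heterozygous and 5.55, 5.56, 5.65 and 5.52 in wild-type hearts, with heterozygous array 4 the lowest of the 8 (change -0.16, SE 0.140, adjusted p = 0.600). Fzd4 had 5.10, 4.74, 4.90 and 4.67 in heterozygous and 5.05, 4.87, 4.76 and 5.37 in wild-type hearts, a change of -0.16 (SE 0.169, adjusted p = 0.636). Wnt5a had 7.96, 8.01, 7.72 and 7.45 in heterozygous and 7.92, 7.86, 7.78 and 8.24 in wild-type hearts, a change of -0.17 (SE 0.177, adjusted p = 0.639). For both genes the heterozygous array 4 was the lowest and wild-type array 4 the highest, and the groups overlapped. Without wild-type array 4 the Fzd4 change was -0.04, and without heterozygous array 4 those of Wnt5a and Wnt5b were -0.06 and -0.07.

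Fzd10, whose brightest probe set heart apart, had 7.07, 7.22, 7.72 and 7.25 in heterozygous hearts, against 7.91, 7.91, 8.07 and 6.34 in wild-type hearts. Wild-type array 4 was the lowest of the 8 and the other 3 were the highest. With all arrays the change was -0.24 (SE 0.379, adjusted p = 0.735), and without wild-type array 3 it was -0.07. Without wild-type array 4 it was -0.62 (SE 0.141, 95% interval -0.94 to -0.31, adjusted p = 0.207), and Fzd10 was then the 1 member probe of 14 with an unadjusted p under 0.05, against 10.9% of all probes.

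Whether the genotype changes differed between tissues was tested as an interaction. None of 9 member probes passed between bone and heart, of 11 between bone and white fat or of 11 between white fat and heart, against 0.0278%, 4.03% and 4.86% of all probes. The smallest adjusted p belonged to Fzd6, whose change in white fat exceeded that in heart by 0.84 (SE 0.310, adjusted p = 0.0941). Without wild-type white fat array 3 that difference was 1.04 (SE 0.287, adjusted p = 0.0333, against 8.27% of all probes). Without wild-type white fat array 4, Wnt5b passed for bone minus white fat at -0.64 (adjusted p = 0.0416, against 6.34% of all probes) and for white fat minus heart at 0.59 (adjusted p = 0.0487, against 8.02%).

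Of the 65 pathway genes outside the family, 35 were measured in bone, 34 in white fat and 32 in heart, and 0 passed by genotype in any of them. In bone the beta-catenin cofactor Bcl9l was at 7.42 ± 0.160 in heterozygous and 7.92 ± 0.163 in wild-type arrays (change -0.50, SE 0.121, adjusted p = 0.0730). In white fat the kinase Gsk3b was at 9.40 ± 0.110 in heterozygous and 8.90 ± 0.329 in wild-type arrays (change 0.50, SE 0.147, adjusted p = 0.0773). The co-receptor Lrp6 was at 8.47 ± 0.194 in heterozygous and 8.91 ± 0.260 in wild-type white fat (change -0.43, SE 0.142, adjusted p = 0.0906; SD, n = 4 each). In heart the feedback gene Axin2 was at 6.09 ± 0.250 in heterozygous and 6.41 ± 0.215 in wild-type arrays (change -0.32, SE 0.192, adjusted p = 0.600).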

How the data were processed

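The submitters' processing notes name GenomeStudio 2011.1. Total RNA was amplified to biotin-labelled cRNA, per the labels' protocols. The authors deposited 2 sets of probe intensities, and their content was read from the values: one holds raw intensities, the other background-subtracted, normalized intensities with detection p-values. The sources used here do not state how the authors scaled the normalized values. For the comparisons here, authors' intensities under 16 were raised to 16 before the log2 scale, so differences near background can be smaller than in the deposited values. Background in the raw values was corrected with the normexp model from detection p-values, offset by 16, quantile-normalized within each tissue (all 24 arrays for tissue contrasts and interactions) and put on a log2 scale in R 4.3.3 with limma 3.58.1. Probes with detection p under 0.05 on at least 4 of 8 arrays were tested, which left 13709 probes in bone, 13411 in white fat and 11669 in heart. Linear models with limma's moderated test and a variance trend were fitted over all kept probes and adjusted by Benjamini and Hochberg's method. The number of arrays limits the precision. On simulated data, probes changed 2-fold were recovered in 96%, 85% and 49% of cases in bone, white fat and heart. Probes changed 1.5-fold were recovered in 48%, 44% and 24%. The largest member change by genotype, Sfrp5 in white fat, was 1.92-fold. The simulated noise was independent between probes, so these shares leave out effects that an array has on many probes together.

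A gene was named by its brightest probe, and by other probes where they disagreed. Values on every array were given for the 6 detected members with the smallest p in each genotype comparison, and tissue values for members past the threshold. Up to 3 pathway genes per list were named by smallest p. The members, lists and tests were chosen with earlier results of these data known. Same-numbered heterozygous and wild-type arrays are different animals, so numbers were not treated as pairs. Their deviations correlated at -0.08 to 0.06 in bone and -0.19 to 0.23 in heart. In white fat the values for numbers 1 to 4 were 0.38, 0.13, -0.07 and 0.38, so an effect shared by number was not excluded there. Alternatives covered background correction, offset, normalization, filters, probe choice, the authors' values, replicate and animal blocks, array brightness, wild-type arrays alone, the shared mouse number and each array left out. Marker sums are log2 of summed intensities over a list.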

Additional observations from a re-analysis of the deposited data

Results flagged for a closer look

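In 6 of 88 groups of 4 arrays, the highest or lowest array stood far from the other 3; chance alone gives about 1 in 20. In wild-type hearts, array 4 was lowest for Fzd10 at 6.34 and highest for Fzd6 at 7.72, and it is the array that correlated least with the other hearts. Wild-type bone array 4 was highest for Fzd7 at 8.31. Heterozygous bone array 2 was highest for the dimmer of the 2 detected Dkk3 probes at 8.69. In heterozygous white fat, array 1 was highest for Fzd8 at 6.15 and array 3 for the dimmer Wnt5a probe at 7.32.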

How the results depend on the processing

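Among named members, each by its brightest probe, the genotype changes kept their direction and side of the threshold in 350 cases and the tissue differences in 234, counting alternatives other than single arrays left out; 16 and 17 turned direction, 0 and 16 lost their call and 3 and 3 gained one while keeping direction, and the cause was not tested. With direction kept, tissue calls lost for bone minus heart were Fzd4 without background correction (-0.14) and after median scaling (-0.18), Wnt10a after median scaling (0.17) and in wild-type arrays alone (0.40), Wnt9b in the authors' values (-0.12) and Fzd2 in wild-type arrays alone (-0.44). For bone minus white fat, Sfrp2 lost its call in the authors' values (0.13) and in wild-type arrays alone (0.30). For white fat minus heart, calls were lost after median scaling by Sfrp1 (-0.12), Wnt2 (-0.13), Wnt5a (-0.02) and Wnt5b (-0.27), in the authors' values by Wnt9b (-0.12), and in wild-type arrays alone by Fzd7 (-0.27), Sfrp1 (-0.46) and Wnt5a (-0.23). Fzd8 gained a call there after median scaling (0.35), in the authors' values (1.59) and in wild-type arrays alone (0.55). In heart, cyclic loess turned Fzd10 to 0.00, Fzd7 to 0.07 and Sfrp1 to 0.08, median scaling turned Fzd10 to 0.10, Fzd7 to 0.17, Sfrp1 to 0.14, Wnt5a to 0.04 and Wnt5b to 0.08, and array brightness as a covariate turned Fzd10 to 0.35. In bone, leaving out both arrays of the shared mouse number turned Fzd4 to -0.03, Fzd6 to -0.01 and Sfrp2 to 0.03. In white fat, array brightness turned Dkk3 to -0.18, Fzd7 to 0.02, Fzd8 to 0.16 and Sfrp1 to -0.32. Brightness did not overlap between the genotypes in white fat or in heart, so those fits cannot separate it from genotype. For bone minus heart, median scaling turned Fzd7 to 0.26 and Wnt5b to 0.03, the authors' values turned Fzd2 to 0.08, Fzd4 to 0.37, Fzd7 to 0.86, Fzd8 to 0.44 and Wnt5b to 0.76, and wild-type arrays alone turned Fzd8 to 0.11. For bone minus white fat, the authors' values turned Fzd7 to -0.29 and Wnt5b to -0.05. For white fat minus heart, median scaling turned Fzd7 to 0.21, and the authors' values turned Fzd6 to 0.26, Fzd7 to 1.15, Sfrp1 to 0.79, Wnt2 to 1.04, Wnt5a to 0.91 and Wnt5b to 0.80. Of these turns, calls were also lost by Wnt5b for bone minus heart and Fzd7 for white fat minus heart after median scaling, and in the authors' values by Fzd2 and Fzd4 for bone minus heart, Wnt5b for bone minus white fat and Fzd6 for white fat minus heart. Fzd7 for bone minus heart under both, and in the authors' values Fzd7 for bone minus white fat and Fzd8 for bone minus heart, passed only once turned. Among dimmer probes, Wnt4 lost its call for bone minus heart after median scaling (0.16) and in the authors' values (0.23) and there for bone minus white fat (0.12), as did Wnt5a for bone minus heart (-0.12) and Wnt9b for bone minus heart (-0.06) and white fat minus heart (-0.03). With single arrays left out, the changes that turned ran in bone from -0.19 to 0.12 for Dkk1, -0.09 to 0.15 for Dkk3, -0.07 to 0.17 for Fzd6, -0.06 to 0.18 for Fzd8, -0.10 to 0.04 for Sfrp1 and -0.18 to 0.03 for Sfrp2. In heart they ran from -0.09 to 0.24 for Fzd2, -0.19 to 0.00 for Fzd7, -0.20 to 0.08 for Sfrp1 and -0.23 to 0.13 for Wnt9b, and in white fat from -0.11 to 0.04 for Fzd7. The count over all probes in bone, 2 in the reported fit, was 28 without background correction, 7 with an offset of 50, 0 after median scaling, 10 with no filter, 7 with 1 probe per gene, 0 in the authors' values, 0 with a replicate block, 0 with array brightness and 1343 without the shared mouse number. In white fat, 1 in the reported fit, it was 0 after median scaling, 406 with detection p under 0.01 on all 8 arrays, 1838 with a replicate block, 0 with array brightness and 0 without the shared mouse number. The white fat members past the threshold, 0 in the reported fit, were 1 under strict detection (Wnt5a, adjusted p = 0.0473) and 2 with the replicate block (Sfrp5, adjusted p = 0.00696, and Wnt5a, adjusted p = 0.0300), although the numbers do not pair the animals; the block called 0 members in bone and heart. The bone minus heart interaction, 3 probes in the reported fit, gave 1 without background correction and 15 after median scaling. With single arrays left out, probes past the threshold ran from 0 to 1405 in bone (1405 without wild-type array 3), 0 to 1517 in white fat (1517 without wild-type array 4) and 0 to 2 in heart, and the white fat members from 0 to 5. For the interactions they ran from 0 to 50 for bone minus heart, 94 to 2161 for bone minus white fat and 6 to 1075 for white fat minus heart, with the highest count without wild-type heart array 4 each time, and members from 0 to 1 for both white fat contrasts. Where all arrays of a tissue were near background, only bounds could be given, and 18 of the 35 genes were not detected on 4 of 8 arrays in any tissue.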
